A study of Homo sapiens with 12 samples.

Results

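The 56 collagen and laminin chain genes were examined in HK-2, a human kidney cell line that was immortalised from proximal tubule. They were all the protein-coding genes, of 20286 in the deposited table, whose symbol is COL, LAMA, LAMB or LAMC followed by a digit. There were 44 collagen and 12 laminin genes. Cells carried no stated genetic change (genotype WT) and were kept for 48 h in DMEM with recombinant S100A8/S100A9, with recombinant S100A9, with recombinant S100A8, or with PBS as control. The labels print the dose of each protein as 5 mg/mL, a unit that was not checked against another source. Each of the 4 groups had 3 libraries of poly(A) RNA. The labels do not say whether these were separate cultures, so each p-value reflects the spread among libraries alone, and that spread may be technical. All groups are 1 cell line in culture, and the 3 treated groups share the same 3 controls.

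Library totals were 15882193 to 20748334 counts. For 0 counts the expected count was taken to be up to about 3, an approximate 95% upper limit. That is 0.189 CPM (normalised for library size) for the library of lowest total and 0.145 CPM for that of highest total. These limits cover counting error only. Of 16 renal epithelial markers, 9 had a mean of at least 1 FPKM (the authors' scale of level per gene length and library size), among them PAX8 at 122, EPCAM at 77.9 and KRT18 at 168 FPKM. The proximal tubule transporters and receptors LRP2, CUBN, AQP1 and SLC34A1 were each under 0.1 FPKM, so the label of proximal tubule rests on the submitters' description. Of 10 fibroblast markers 4 reached 1 FPKM, led by LUM at 33.0 FPKM, whereas PDGFRA and DCN were under 0.02 FPKM. The summed FPKM of that list was 43.4 to 49.9 after S100A8/S100A9, 38.2 to 43.8 after S100A9, 39.2 to 46.6 after S100A8 and 44.2 to 48.5 in control. COL1A1 and COL3A1 are on that list too, and its part in the results was not tested. None of 6 endothelial markers and 1 of 6 leukocyte markers (CD68, which other cells also express) reached 1 FPKM. In bulk RNA, fewer cells of a type and less RNA per cell cannot be told apart.

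Collagens are triple helices of 3 alpha chains. Fibrillar collagens form the fibres of connective tissue, type IV collagens form the network of basement membranes, and type VII collagen forms the anchoring fibrils below epithelia such as skin. Laminins join 1 alpha, 1 beta and 1 gamma chain into a cross-shaped protein that assembles on the cell surface and starts a basement membrane. In the kidney, basement membranes underlie every tubule, and the tubular epithelium makes part of their chains itself.

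HK-2 cells expressed 24 of the 56 genes at a mean of at least 1 FPKM over the 12 libraries. Of these, 14 were among the 22 genes listed as basement membrane chains and 10 among the other 34. The basement membrane chains held 82.7% to 84.7% of the summed FPKM of all 56 genes in every library, with a sum of 728.14 to 808.7 FPKM. The 11 fibrillar collagens together held 0.817% to 1.07%. Just inside the level of 1 FPKM lay COL1A1 at 2.28 FPKM, and just outside it COL11A1 at 0.87, COL22A1 at 0.79, COL5A2 at 0.67 and COL11A2 at 0.59 FPKM.

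Laminins were the most fully expressed class, with 9 of 12 chains at 1 FPKM or more. LAMB1, the beta-1 chain found in most basement membranes, averaged 149 ± 6.63 FPKM (SD over 12 libraries, which spans all groups). LAMC1, the gamma-1 chain of most laminins, averaged 80.9 ± 3.74 FPKM.

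Beta chains LAMB3 and LAMB2 averaged 26.5 and 21.9 FPKM, and the gamma-3 chain LAMC3 averaged 7.96 FPKM. Alpha chains were lower than LAMB1 and LAMC1: LAMA1 averaged 14.5, LAMA3 14.2 and LAMA5 11.4 FPKM. LAMA3 is an alpha chain of epithelial laminins that joins LAMB3, and LAMA5 is an alpha chain of the mature tubular basement membrane. The summed alpha chains came to 38.6 to 43.3 FPKM per library and the beta chains to 190 to 212 FPKM. LAMA2, LAMA4 and LAMB4, which are found mainly in other tissues, were at 0.49, 0.11 and 0.039 FPKM.

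Of the type IV collagens, COL4A2 and COL4A1, whose products join in the widespread alpha1-alpha1-alpha2 trimer, averaged 137 ± 4.58 and 77.4 ± 2.73 FPKM. COL4A2 was 1.64 to 1.88 times COL4A1 in FPKM in each library. COL4A5, which encodes a chain of the specialised trimers of the glomerulus, tubule and skin and is mutated in X-linked Alport syndrome, averaged 2.89 FPKM. Its trimer partners COL4A3 (0.088), COL4A4 (0.18) and COL4A6 (0.019 FPKM) were low. The 6 genes lie in 3 head-to-head pairs, in which the RefSeq starts are 127 bases (COL4A1 and COL4A2), 380 bases (COL4A5 and COL4A6) and 419 bases (COL4A3 and COL4A4) apart. The 250 bases before the COL4A5 start are shown because the levels of this gene and its neighbour lie far apart. They come from RefSeq on GRCh38.p14, chrX:108439588-108439837, plus strand, 5′ to 3′, and capitals mark CCAAT on either strand.
COL4A5: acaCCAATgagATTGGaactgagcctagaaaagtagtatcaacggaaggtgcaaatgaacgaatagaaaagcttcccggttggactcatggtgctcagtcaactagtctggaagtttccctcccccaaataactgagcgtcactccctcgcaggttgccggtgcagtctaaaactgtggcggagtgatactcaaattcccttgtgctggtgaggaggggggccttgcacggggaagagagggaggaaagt

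Other basement membrane collagens ranged widely. COL18A1, whose C-terminal fragment is endostatin, averaged 34.9 FPKM, whereas the related COL15A1 was at 0.023 FPKM. COL17A1, the transmembrane collagen of hemidesmosomes, was at 0.33 FPKM. COL7A1, the single chain of the anchoring fibril, averaged 16.1 ± 1.23 FPKM, inside the ranges of COL14A1 and LAMA1.

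Beyond the basement membrane chains, COL6A2 (47.4 FPKM) and COL6A1 (27.2 FPKM), chains of the beaded filaments of type VI collagen, were highest. The alpha-3 chain of that trimer, COL6A3, was at 0.06 FPKM, and COL6A5 and COL6A6, which can take its place, were at 0.0042 and 0.03 FPKM. The short-chain network collagens COL8A1 and COL8A2 averaged 17.5 and 3.59 FPKM. FACIT collagens, which sit on the surface of fibrils, were present as COL14A1 (16.3), COL12A1 (11.5), COL16A1 (9.18) and COL9A2 (2.65 FPKM). Fibrillar collagens at 1 FPKM or more were COL27A1 (3.17) and COL1A1 (2.28 FPKM). COL1A2, the partner of COL1A1 in type I collagen, had 0 counts in all 12 libraries, COL5A3 and COL23A1 had 1 count each in total, and COL3A1 was at 0.018 FPKM.

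**Figure D1:**
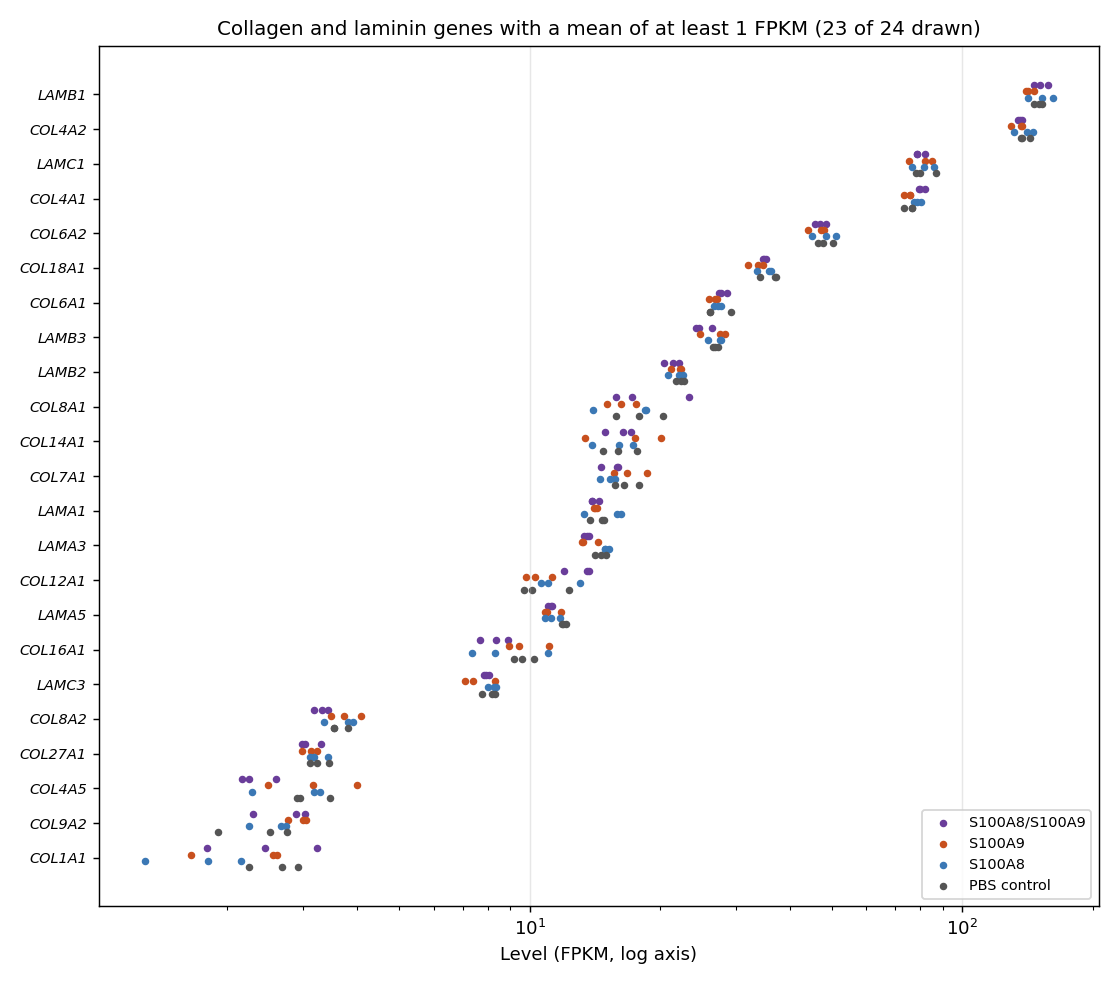
Level of 23 of the 24 collagen and laminin genes with a mean of at least 1 FPKM (log axis), 1 point per library, colours for the 4 groups. LAMB1 and COL4A2 lie above 129 FPKM in every library, and points of the 4 groups lie close together for most genes.

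Of the 56 genes, 34 had enough counts to be tested, among them 17 of the 22 basement membrane chains. The other 22 had a mean of at most 0.11 FPKM and 0 to 87 counts summed over all libraries, and 4 of them were above 0 in every library. Across the 4 groups, COL7A1 was the only one of the 34 that passed edgeR's quasi-likelihood F test for any difference (F = 14.35, adjusted p = 0.00835 over 13512 genes). Over all genes tested, 0.222% passed that test. At an unadjusted p under 0.05 it gave 5 of the 34 genes, against 5.91% of all genes. Next in order of p were LAMA3 (adjusted p = 0.58 in edgeR) and COL4A5, COL16A1 and COL1A1.

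COL7A1 (ENSG00000114270) lies on the minus strand at chr3:48564073-48595267 on GRCh38 (GENCODE release 29). The 250 bases before its start are shown because it is the member that passed the test across groups. They come from RefSeq on GRCh38.p14, chr3:48595330-48595579, minus strand, 5′ to 3′, and capitals mark the core of GC boxes, GGGCGG, and the pattern of the TATA box, TATAAA, on either strand.
COL7A1: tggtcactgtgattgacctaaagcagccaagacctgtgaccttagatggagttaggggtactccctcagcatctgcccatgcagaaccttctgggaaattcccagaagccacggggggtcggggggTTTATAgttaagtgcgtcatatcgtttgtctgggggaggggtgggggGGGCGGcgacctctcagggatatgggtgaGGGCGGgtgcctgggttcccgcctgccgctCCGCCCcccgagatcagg

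This window holds GGGCGG in 3 places and TATAAA in 1. The AP-1 pattern, TGANTCA, and the CCAAT pattern are not among its letters. GGGCGG was found in 42.6% of all 35116 RefSeq windows of 250 bases, TATAAA in 10.7%, CCAAT in 32% and TGANTCA in 6.57%. Windows matched 41 of the 56 genes by symbol. GGGCGG was in at least 1 window of 16 of 17 genes at 1 FPKM or more and of 11 of 24 other genes. CCAAT was found in 4 of 17 and 9 of 24, TATAAA in 3 of 17 and 4 of 24, and TGANTCA in 2 of 17 and 1 of 24. These counts are per gene, over all windows of that gene, whereas the percentages are per window, so the 2 are not directly comparable. The 4 patterns share no overlapping matches in the windows shown, and a match describes letters only.

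COL7A1 had 128.5, 129.1 and 126.3 CPM after S100A8/S100A9, 145.5, 156.9 and 164.2 CPM after S100A9, 134.6, 141.5 and 134.4 CPM after S100A8, and 148.8, 140.6 and 153.0 CPM in control (TMM-normalised). All 3 S100A8/S100A9 libraries lay below every library of the other 3 groups, while the S100A9 and control libraries overlapped, as did those of S100A8 and control. Means were 128 ± 1.49, 156 ± 9.42, 137 ± 4.07 and 147 ± 6.30 CPM in the same order (SD, n = 3 each).

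COL7A1 was lower after S100A8/S100A9 than after S100A9, with a log2 fold change of -0.28 (95% interval -0.38 to -0.19; SE 0.046; edgeR adjusted p = 0.00187). Its call was lost when S100A9 replicate 3, its highest library, was left out (log2 fold change -0.24, adjusted p = 0.0706 in edgeR), and the F test over the 4 groups was lost without that library (adjusted p = 0.14) or without S100A8/S100A9 replicate 3 (adjusted p = 0.0664). In deposited FPKM the values were 15.91, 15.97 and 14.6 after S100A8/S100A9, 15.63, 16.81 and 18.68 after S100A9, 15.78, 15.32 and 14.52 after S100A8, and 17.92, 15.71 and 16.55 in control. On that scale all 4 groups overlapped, and limma on log2(FPKM + 1) gave a log2 fold change of -0.13 (adjusted p = 0.755) between S100A8/S100A9 and S100A9, whereas limma on log2 CPM kept the call (adjusted p = 0.00277).

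**Figure D2:**
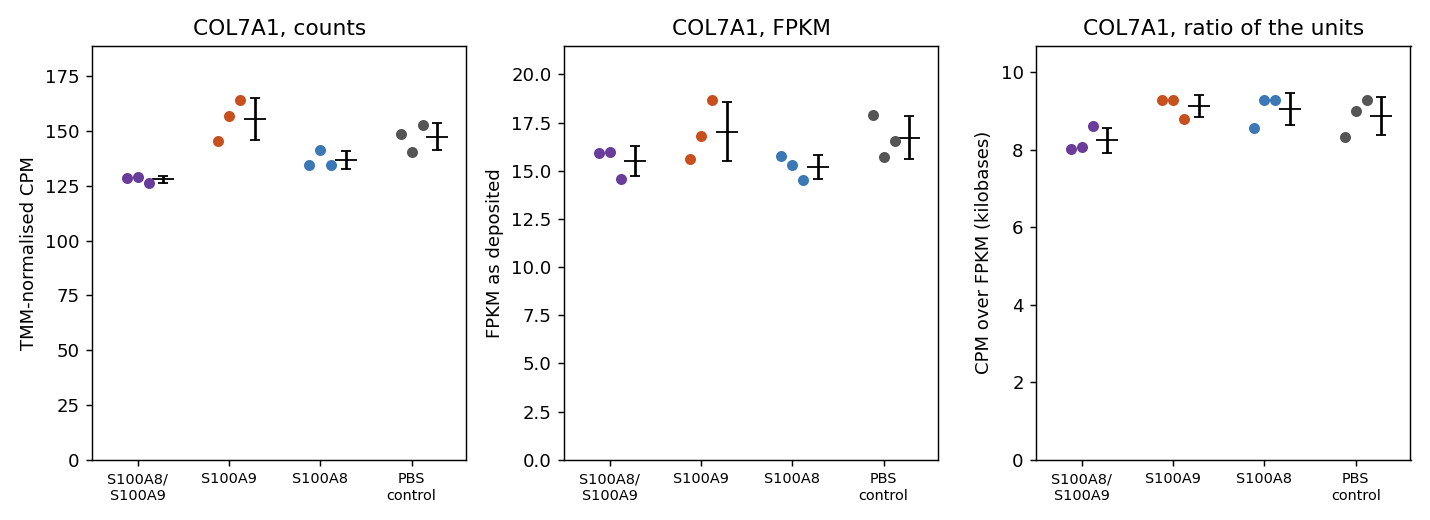
COL7A1 in each library as TMM-normalised CPM, as deposited FPKM and as the length in kilobases that links count and FPKM, with points for libraries and group means with SD (n = 3). In CPM all S100A8/S100A9 libraries lie at 126.3 to 129.1, under every other library, and in FPKM the groups overlap.

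The remaining comparisons of COL7A1 did not pass. Against control the log2 difference was -0.20 after S100A8/S100A9 (95% interval -0.30 to -0.11, adjusted p = 0.63 in edgeR), 0.08 after S100A9 (adjusted p = 0.884) and -0.11 after S100A8 (adjusted p = 1.00). S100A9 minus S100A8 was 0.19 (95% interval 0.09 to 0.28, adjusted p = 0.142 in edgeR), and S100A8/S100A9 minus S100A8 was -0.10 (adjusted p = 0.98 in edgeR). The difference of S100A9 from control was 0.12 without S100A9 replicate 1, 0.04 without S100A9 replicate 3 and 0.04 without control replicate 2. With limma on log2(FPKM + 1) it was 0.02, and that of S100A8/S100A9 from control was -0.10. S100A8/S100A9 against control had an unadjusted p of 0.000152 in edgeR. Its adjusted p was 0.25 with DESeq2's Wald test and 0.538 to 0.988 in edgeR with each library left out. These comparisons share libraries and are not independent of each other.

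After S100A8/S100A9 against control, 0 of the 34 genes passed edgeR's test, as did 0% of all genes. At an unadjusted p under 0.05 edgeR gave 4 of 34, against 5.6% of all genes, and DESeq2 and limma on log2 CPM also called 0 of the 34. The 3 genes of smallest p were COL7A1, COL4A5 and COL1A1. COL4A5 had 14.1, 14.2 and 16.8 CPM after S100A8/S100A9 and 18.7, 18.6 and 18.9 CPM in control, without overlap. Its log2 difference was -0.32 (SE 0.097, adjusted p = 0.63 in edgeR). COL1A1, the alpha-1 chain of type I collagen, had 7.18, 6.70 and 6.39 CPM after S100A8/S100A9 and 8.05, 8.84 and 9.01 CPM in control, also without overlap, a log2 difference of -0.35 (SE 0.13, adjusted p = 0.829 in edgeR). In FPKM the COL1A1 groups did overlap, at 3.23, 2.44 and 1.80 after S100A8/S100A9 and 2.68, 2.92 and 2.24 in control, and limma on log2(FPKM + 1) gave -0.07. In all, groups did not overlap for 8 genes, 7 lower after S100A8/S100A9 (COL7A1, COL4A5, COL1A1, LAMA3, LAMA5, COL16A1 and COL8A2) and 1 higher (COL5A2), while 10.7% of all genes tested did not overlap.

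After S100A9 against control, 0 of the 34 genes passed in edgeR, DESeq2 and limma on log2 CPM, where edgeR called 0.148% of all genes. At an unadjusted p under 0.05 it gave 2 of 34, against 5.85% of all genes. The laminin chain LAMA3 had 97.0, 98.1 and 103.7 CPM after S100A9 and 113.7, 108.1 and 112.9 CPM in control. All 3 S100A9 libraries lay below the controls, at a log2 difference of -0.16 (SE 0.044, adjusted p = 0.221 in edgeR). In FPKM the LAMA3 groups did overlap, at 13.27, 13.24 and 14.41 after S100A9 and 14.98, 14.13 and 14.58 in control, and limma on log2(FPKM + 1) gave -0.09 (adjusted p = 0.838). COL18A1 differed by -0.10 (SE 0.044, adjusted p = 0.782) and LAMA5 by -0.08 (SE 0.041, adjusted p = 0.853) in edgeR. Groups did not overlap for LAMA3, LAMA5, COL24A1 and LAMB1, all lower after S100A9, against 12% of all genes tested.

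After S100A8 against control, 0 of the 34 genes passed in edgeR, DESeq2 and limma on log2 CPM, and edgeR called 0.0074% of all genes. At an unadjusted p under 0.05 it gave 3 of 34, against 3.53% of all genes: COL1A1, COL7A1 and COL4A5. COL1A1 had 6.32, 6.80 and 7.6 CPM after S100A8 and 8.05, 8.84 and 9.01 CPM in control, without overlap, a log2 difference of -0.32 (SE 0.13, adjusted p = 1.00 in edgeR). COL4A5 had 18.1, 15.6 and 14.6 CPM after S100A8, all below the controls, a log2 difference of -0.22 (SE 0.097, adjusted p = 1.00 in edgeR). In FPKM the COL4A5 groups did overlap, at 3.28, 3.18 and 2.28 after S100A8 and 2.95, 2.90 and 3.45 in control, and limma on log2(FPKM + 1) gave -0.07 (adjusted p = 1.00). LAMA5 also had groups that did not overlap, which made 3 genes, against 8.54% of all genes tested, and COL7A1 did overlap.

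**Figure D3:**
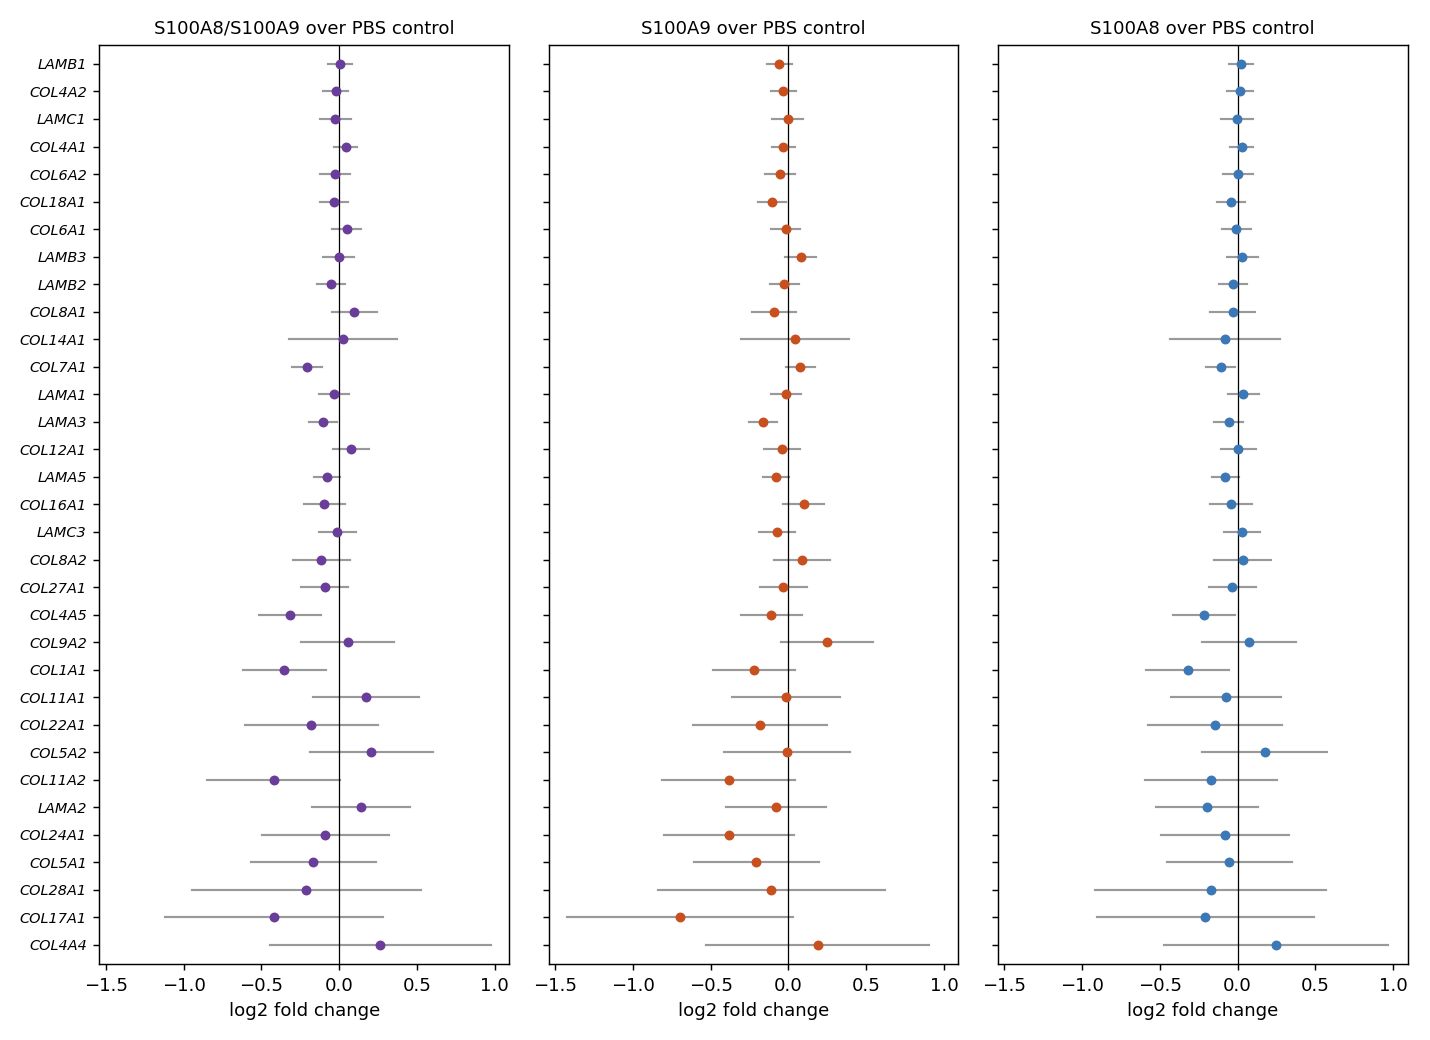
Log2 difference from control with 95% intervals for 33 of the 34 tested genes, ordered by mean FPKM, with a panel for each treated group. Most estimates of well expressed chains lie near 0 and no gene passes the adjusted threshold in any panel.

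COL4A2 and LAMC1, both highly expressed, had estimates near 0. Against control, the log2 difference of COL4A2 was -0.02 after S100A8/S100A9 (95% interval -0.11 to 0.06), -0.03 after S100A9 (-0.11 to 0.05) and 0.02 after S100A8 (-0.07 to 0.10). For LAMC1 it was -0.02 (-0.13 to 0.08), -0.01 (-0.11 to 0.10) and 0.00 (-0.10 to 0.10) in the same order. LAMB1 averaged 787 ± 14.5 CPM after S100A8/S100A9, 754 ± 7.75 after S100A9, 797 ± 45.2 after S100A8 and 784 ± 20.1 in control. All of its S100A9 libraries lay below the controls. COL4A1 averaged 495 ± 8.98, 470 ± 8.41, 490 ± 11.6 and 481 ± 15.5 CPM in the same order, and each treated group overlapped control. The summed FPKM of the basement membrane chains was 754 ± 13.7 after S100A8/S100A9, 754 ± 22.7 after S100A9, 771 ± 38.0 after S100A8 and 766 ± 20.2 in control (SD, n = 3 each). The libraries ranged from 728.14 to 808.7 FPKM, and no test was run on this sum.

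The 10 tested laminins had median log2 differences of -0.03 after S100A8/S100A9, -0.04 after S100A9 and 0.01 after S100A8, with 0 calls. The 4 tested type IV collagens had medians of 0.01, -0.03 and 0.02, and the 7 tested fibrillar collagens -0.09, -0.21 and -0.07. Over the 34 genes, 23 were below 0 after S100A8/S100A9, 26 after S100A9 and 21 after S100A8, against 50.3%, 50.1% and 49.8% of all genes tested. Medians were -0.03, -0.04 and -0.03, against 0.00 over all genes, and the 3 comparisons share their controls.

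Between the treated groups, S100A8/S100A9 against S100A9 gave 1 call of 34, COL7A1, where edgeR called 0.252% of all genes. At an unadjusted p under 0.05 it gave 7 of 34, against 7.15% of all genes. Next in order of p were the FACIT chain COL16A1 and the network chain COL8A1. COL16A1 had 32.4, 32.7 and 32.8 CPM after S100A8/S100A9 and 34.9, 36.5 and 40.5 CPM after S100A9, without overlap, a log2 difference of -0.19 (SE 0.063, adjusted p = 0.465 in edgeR). COL8A1 had 67.9, 59.5 and 60.4 CPM after S100A8/S100A9 and 61.4, 51.0 and 52.7 CPM after S100A9, with overlap, a log2 difference of 0.19 (SE 0.069, adjusted p = 0.542 in edgeR). Groups did not overlap for COL7A1, COL16A1 and COL8A2, lower after S100A8/S100A9, and for COL4A1, LAMB1, COL18A1 and COL6A1, higher, against 12.5% of all genes tested.

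S100A8/S100A9 against S100A8 gave 0 of 34 in edgeR, DESeq2 and limma on log2 CPM, as did 0% of all genes in edgeR, and 2 of 34 at an unadjusted p under 0.05, against 4.43% of all genes. LAMA2 differed by 0.34 (SE 0.16), COL7A1 by -0.10 and COL8A1 by 0.13 (SE 0.069), each with adjusted p = 0.98 in edgeR. Without S100A8/S100A9 replicate 1 the COL8A1 difference was 0.06. Groups did not overlap for COL7A1, lower, and COL11A1, COL12A1 and COL6A1, higher after S100A8/S100A9, against 9% of all genes tested.

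S100A9 against S100A8 also gave 0 of 34 in edgeR, DESeq2 and limma on log2 CPM, where edgeR called 0.185% of all genes, and 4 of 34 at an unadjusted p under 0.05, against 7% of all genes. COL7A1 had the smallest p, and without S100A9 replicate 1 it passed (log2 difference 0.23, adjusted p = 0.0426 in edgeR). LAMA3 differed by -0.11 (SE 0.044, adjusted p = 0.647 in edgeR) and COL16A1 by 0.14 (SE 0.064, adjusted p = 0.698 in edgeR). Without S100A9 replicate 3 the COL16A1 difference was 0.08. Groups did not overlap for COL7A1, higher after S100A9, and for LAMA3 and COL24A1, lower, against 12.5% of all genes tested.

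**Figure D4:**
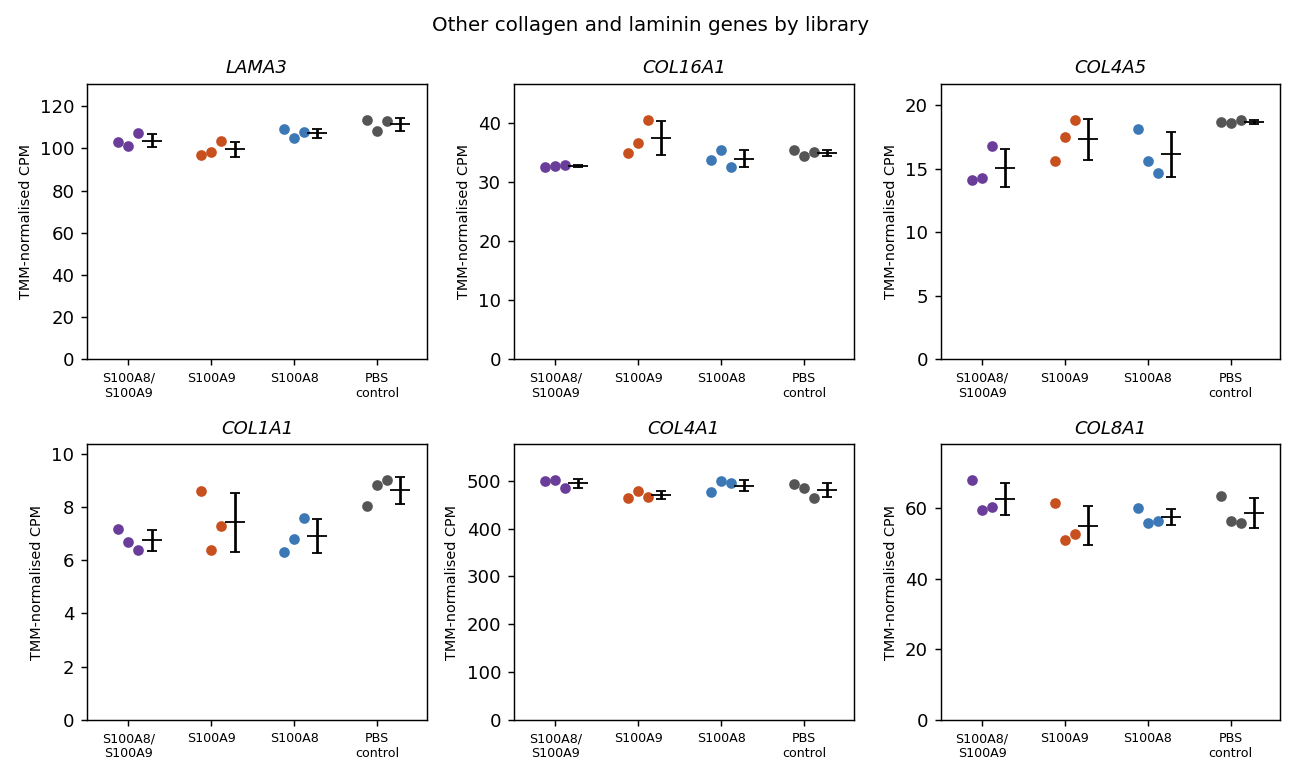
TMM-normalised CPM by library for further named collagen and laminin genes, with group means and SD (n = 3). LAMA3 lies at 97.0 to 103.7 CPM after S100A9, below all controls, and COL4A5 lies at 14.1 to 16.8 CPM after S100A8/S100A9, below all controls.

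RNA of the genes for proteins that build, fold and bind these chains was counted beside that of the chains. Of 15 tested of 19 other basement membrane genes, such as NID1 (nidogen-1, 33.8 FPKM), HSPG2 (perlecan, 18.3 FPKM) and AGRN (agrin, 50.8 FPKM), 0 passed edgeR's test in each of the 6 comparisons, with 0 to 2 of 15 at an unadjusted p under 0.05, against 3.53% to 7.15% of all genes. Of 33 tested of 35 genes for collagen folding, modification, processing and crosslinking, P4HA2, a catalytic subunit of prolyl 4-hydroxylase, was the 1 call, between S100A8/S100A9 and S100A9, where 0.252% of all genes were called. It had 43.3, 39.8 and 43.3 CPM after S100A8/S100A9 and 47.6, 56.1 and 56.0 CPM after S100A9, without overlap, and fell by 0.34 on the log2 scale (SE 0.067, adjusted p = 0.0199 in edgeR). The P4HA2 call was lost when any of 5 of the 6 libraries was left out (all but S100A9 replicate 1), with adjusted p of 0.0628 to 0.252, and with limma on log2(FPKM + 1) (adjusted p = 0.527).

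Of 16 tested of 18 receptors, ITGA1, the alpha-1 integrin that binds type IV collagen, was the 1 gene called, in comparisons where 0.148% (S100A9 against control), 0.185% (S100A9 against S100A8) and 0.252% (S100A8/S100A9 against S100A9) of all genes were called. It had 31.0, 29.9 and 33.4 CPM after S100A8/S100A9, 38.7, 37.9 and 41.5 CPM after S100A9, 30.0, 27.7 and 27.7 CPM after S100A8, and 31.4, 27.0 and 29.9 CPM in control. All 3 S100A9 libraries lay above the other 9. ITGA1 rose after S100A9 against control (log2 fold change 0.42, SE 0.069, adjusted p = 0.00278) and against S100A8 (0.47, adjusted p = 0.000509), and was lower after S100A8/S100A9 than after S100A9 (-0.33, adjusted p = 0.0285), all in edgeR. The call against S100A8 held without each library in turn (adjusted p up to 0.0153). The call against control was lost without S100A9 replicate 3 (adjusted p = 0.0528) or control replicate 2 (0.0522), and that between S100A8/S100A9 and S100A9 without any of the 6 libraries but S100A8/S100A9 replicate 3 (adjusted p of 0.0689 to 0.333). With limma on log2(FPKM + 1) all 3 ITGA1 calls were lost (adjusted p of 0.253 to 0.447).

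The deposited counts and FPKM also give, for each library, the gene length that links them (CPM by library total, divided by FPKM, in kilobases). For LAMC1 it was the same in every library, at a highest-to-lowest ratio of 1.0001, and LAMC3 (1.0044) and LAMB2 (1.0196) varied little. COL7A1 had 8.02 to 9.28 kb, a ratio of 1.16, with means of 8.23 ± 0.32 kb after S100A8/S100A9, 9.11 ± 0.28 kb after S100A9, 9.04 ± 0.42 kb after S100A8 and 8.86 ± 0.49 kb in control (SD, n = 3 each). COL1A1 varied most, from 2.21 to 5.91 kb (ratio 2.67), followed by COL4A5 from 4.36 to 6.47 kb (1.48). The median ratio was 1.078 over the 24 genes and 1.089 over 11920 genes at 1 FPKM or more, and 6 of the 24 exceeded 1.2, against 24.9% of those genes. FPKM here equals CPM divided by this length. Where the length varies between libraries, as for COL7A1, differences in CPM and in FPKM therefore need not match. On average COL7A1 was lower after S100A8/S100A9 than after S100A9 both in CPM and in this length. How much of its CPM difference goes with the length was not tested.

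**Figure D5:**
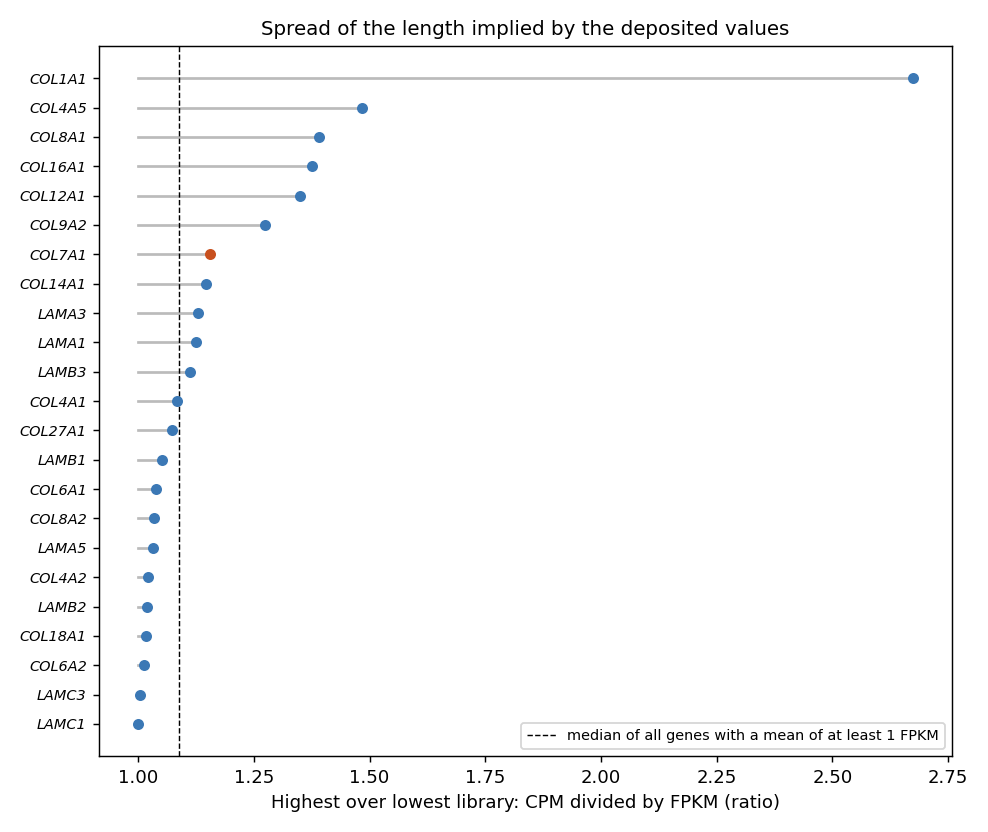
Highest over lowest library of CPM divided by FPKM for 23 of the 24 genes at 1 FPKM or more. LAMC1 is at 1.0001 and COL1A1 at 2.67, and the dashed line marks the median of all genes, 1.089.

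Over the 12 libraries, after group means were removed, COL7A1 was most like MED23 (Pearson r = 0.97 of log2 CPM), CHD6 (0.96), KANTR (0.95), APOBEC3G (0.93) and CDYL (0.93). Without the 2 libraries farthest from the median, r was 0.93, 0.91, 0.92, 0.84 and 0.94 in the same order. Among collagens and laminins the closest were COL16A1 (0.82, then 0.80) and LAMA1 (0.75, then 0.71). MED23, CHD6, KANTR, APOBEC3G and CDYL were the highest of 13512 genes searched, whereas COL16A1 and LAMA1 were the highest among the tested collagens and laminins only. The libraries share their depth and scaling, so all of these values are a description.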

How the data were processed

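Expression was taken from 1 deposited table with an expected count and an FPKM value for each of 20286 genes in 12 libraries. The authors' deposited counts are expected counts, since 12.0% of entries were not whole (tolerance 1e-06), and the deposited FPKM values are the authors' scaling to length and depth. Aligner, counting tool, annotation and strand: not given in the sources used here. Without strand, reads of a gene and of an antisense partner cannot be told apart. Mouse builds (GRCm38, mm10) appear in the submitters' processing notes, yet 100% of the IDs are those of human genes in Ensembl. It is thus unknown which build lies under the counts, and coordinates are from GENCODE release 29. Names came from a gene name table for 20228 IDs and from GENCODE for 50, and 8 had none.

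Counts were rounded and tested with edgeR 4.0.16 (R 4.3.3): filterByExpr with a minimum count of 10 left 13512 genes, TMM scaling, and a robust quasi-likelihood fit to all 12 libraries with 1 coefficient per group with 8 residual degrees of freedom and a common biological coefficient of variation of 4.65%. Two-sided p-values were adjusted over all genes by Benjamini and Hochberg, with a threshold of 0.05. Alternatives were a replicate block, DESeq2 1.42.0 size factors and tests, no filter, only the 6 libraries compared, limma 3.58.1 on log2(FPKM + 1), each library left out and, chosen after seeing the data, limma on log2 CPM. The procedure was tested on simulated data. Genes were named by rule: those at 1 FPKM or more, COL7A1, those past the threshold and the 3 of smallest p per comparison. Members of the other lists were named where they passed, and the remaining genes were named after their values were seen. The members and lists were chosen with earlier results of these data known. A member and a marker are counted in the totals but not reported here by name. Levels between genes were compared in FPKM only.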

Additional observations from a re-analysis of the deposited data

How the results depend on the processing

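Of 298 recomputed values of single genes, 277 kept their direction and their side of the threshold, 18 lost a call, 2 gained one and 1 changed sign. The number of collagen and laminin genes called fell to 0 with limma on log2(FPKM + 1), against 1 in edgeR, both in the F test over the 4 groups and between S100A8/S100A9 and S100A9, and leaving out each library in turn gave 0 to 1 in both. The cause was not tested, but that alternative uses a length that differs between libraries. Between S100A9 and S100A8 the count was 0 to 1 with each library left out, against 0, and in the other comparisons it was 0. The difference of COL7A1 between S100A8/S100A9 and S100A8 turned to 0.025 with limma on log2(FPKM + 1) (adjusted p = 0.993). Genes at a mean of 1 FPKM or more numbered 24, against 28 at 0.5 FPKM. Over all genes, limma on log2(FPKM + 1) called 13 for S100A9 against control (edgeR 20), 10 for S100A9 against S100A8 (25), 13 for S100A8/S100A9 against S100A9 (34) and 11 in the F test (30). With each library left out, edgeR called 11 to 22, 14 to 24, 14 to 31 and 13 to 33 genes in these 4 tests. For S100A8/S100A9 against control (0 in edgeR) the 6 libraries alone gave 2 and DESeq2 1, for S100A8/S100A9 against S100A8 (0) DESeq2 gave 2, and for S100A8 against control (1) the 6 libraries alone gave 0.

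With replicate number as a block, S100A9 against S100A8 gave 1 call among the collagens and laminins, COL7A1 (log2 difference 0.18, adjusted p = 0.0424 in edgeR), against 0 without it. For S100A8/S100A9 against control, COL7A1 had an adjusted p of 0.0577 with the block and 0.63 without it, both in edgeR. Over all genes the block gave 42 calls against 20 for S100A9 against control, 69 against 25 for S100A9 against S100A8, 71 against 34 for S100A8/S100A9 against S100A9, 72 against 30 in the F test, and 2 against 1 and 2 against 0 for S100A8 and S100A8/S100A9 against control. Of 18 same-number pairs of libraries, 2 had a residual correlation over 0.1 (range -0.07 to 0.15). The rule set for pairing asked for all 18 and was not met, but it cannot show that the numbers carry no shared effect. Of 12 libraries, 8 correlated best on average with their own number, and 2.59% of genes tested passed the F test on number in edgeR.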

Other observations

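Replicate number separated some collagens and laminins across all 4 groups, where it has no stated meaning. In the fit with group and number, 4 of the 34 tested genes passed the F test on number (350 of 13512 genes, 2.59%, did so in edgeR), among them COL14A1, LAMC1 and COL8A1. COL14A1 had its lowest library at number 2 in every group: 77.6 CPM after S100A8/S100A9, 75.1 after S100A9, 75.8 after S100A8 and 78.2 in control. LAMC1 had its highest at number 2 in every group, at 649, 679, 680 and 686 CPM in the same order. These values were noticed in the data, and their cause was not tested.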
